A study of Mus musculus with 27 samples.

Results

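The 6 libraries described here profiled TRAP1 KO bone marrow-derived macrophages kept in control medium, 3 from M2 macrophages and 3 from unpolarized Mφ, and they were taken by their titles from the first batch of a series of 27 libraries. The question was which transcripts differ between M2 macrophages, given a step with interleukin-4 (IL-4), and Mφ when TRAP1 is missing. TRAP1 is a mitochondrial chaperone of the HSP90 family. Of the 50559 genes in the count table, 13614 passed the filter on low counts and were tested.

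The series crossed 2 genotypes, WT and TRAP1 KO, with 2 states, Mφ and M2, and 2 media, a DMEM control medium and medium conditioned by malignant peripheral nerve sheath tumor cells (MPNST-CM). The sources describe all macrophages as from bone marrow of age-matched female C57BL/6 mice of about 4 months, differentiated for 4 + 3 days in macrophage differentiation medium. M2 macrophages then received 10 ng/mL IL-4 for 24 h, and all cells spent 48 h in control medium or MPNST-CM. M2 and Mφ therefore differ by the IL-4 step. The methods give that step in complete RPMI medium and do not say whether the sequenced Mφ spent the same 24 h in it. Any difference in that medium or in culture time could not be told apart from IL-4. An IL-4 change below means M2 minus Mφ as cultured. The sources do not say whether IL-4 stayed present during the last 48 h. They also do not name the kind of TRAP1 KO allele or say whether the replicates are separate animals or cultures, so p-values measure only the spread between these libraries, which may be technical.

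The 6 libraries held 7443943 to 8357831 counts each, which puts 3 counts at 0.359 to 0.403 per 1000000 counts of the unscaled library. CPM (counts per 1000000) of genes are given on the TMM-adjusted library total. No Trap1 read was counted in any of the 6 against 83 to 144 in the WT libraries of the same batch. Every library correlated best with its own group (Spearman's rho 0.985 to 0.992). Mφ replicate 1 and M2 replicate 2 stood apart from their groups. Chi-square per degree of freedom over genes was 16.1 and 17.8 for the pairs with Mφ replicate 1 against 3.42 for the other Mφ pair, and 10.8 and 13.1 for the pairs with M2 replicate 2 against 4.26. The mitochondrially encoded transcripts took 4.41 to 5.88% of the counts in Mφ and 6.23 to 7.26% in M2, and ribosomal protein genes 4.17 to 4.72% and 3.15 to 3.54%. One further library with the same labels, TRAP1 KO M2 in control medium, belongs to a second batch and was not among the 6. It held 24.0 CPM of Retnla, between 1734 to 2032 CPM in these M2 libraries and 0.734 to 2.55 CPM in Mφ on the same scale. It also held 1.82 CPM of Chil3 against 250.04 to 306 CPM in these M2 libraries and 0 to 1.27 CPM in Mφ, no count of Ccl17, and 2 counts of Trap1. Its Retnla and Chil3 lay far below the other M2 libraries, so that the M2 label is in doubt. Retnla lay above every Mφ library, so these levels do not place the library with Mφ either. Values with the second batch included for TRAP1 KO in control medium, or for differences from it, rest in part on this library. Those that use TRAP1 KO in MPNST-CM rest in part on a second batch library labelled M2. With that library the log2 fold change in MPNST-CM went from 2.68 to 6.14 for Fn1 and 7.87 to 10.36 for Retnla. Those that use WT rest in part on 1 labelled Mφ. Earlier results placed 2 of these 3 libraries closer to other groups. Values with batch as a covariate rest in part on all 3. A log2 fold change is M2 minus Mφ, from 1 edgeR quasi-likelihood fit over the 24 libraries of batch 1, and a gene "rose" or "fell" where its Benjamini-Hochberg adjusted p was under 0.05. Single values in parentheses, and values after "by" with an SE, are these log2 fold changes.

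IL-4 binds a receptor made of IL-4Rα and the common γ chain or IL-13Rα1, and the JAK kinases bound to it phosphorylate STAT6, which enters the nucleus and switches on the genes of alternative (M2) activation. Macrophages in this state are known for lectin receptors, secreted chitinase-like and resistin-like proteins, arginase, lipid uptake and oxidation, and the ability to fuse. Type I interferon acts through its own receptor and transcription factors on a separate set of antiviral genes.

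IL-4-polarized TRAP1 KO macrophages differed from Mφ in 3883 genes. Of these, 2122 rose (15.6% of the genes tested) and 1761 fell (12.9%), with 757 rises and 579 falls of at least 1 log2 unit. The libraries of the 2 groups did not overlap for 3751 of the 3883, and for 40.7% of all genes tested. The median log2 fold change of all genes was -0.03. With the 3 libraries of the second batch included the count fell to 2216 of 13723 genes tested, 1379 up and 837 down. It was 2045 with batch as a covariate, 1201 up and 844 down. Counts by list with the second batch included are to be read against these lower totals. Leaving out both Mφ replicate 1 and M2 replicate 2, a choice made after seeing the data, left 3081 genes. Of 155 TRAP1 KO calls named here with a value, 52 were lost with the second batch included and 53 with batch as a covariate, and none was called in the opposite direction. Values given with the second batch included are log2 fold changes or differences from the fit to all 27 libraries.

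The largest rises included members of the alternative activation list. Retnla, which encodes the secreted resistin-like protein RELMα, stood at 0.7502, 2.62 and 1.18 CPM in the Mφ libraries and 1850.4, 2074 and 1763 CPM in the M2 libraries (log2 fold change 10.28 ± 0.24 (SE), adjusted p = 1.9e-19). Chil3, the chitinase-like protein Ym1, was at 0, 1.31 and 0.132 CPM in the Mφ libraries and 255, 312 and 299.9 CPM in the M2 libraries (log2 fold change 9.20 ± 0.27 (SE), adjusted p = 4.2e-18). Rnase2a, an eosinophil-associated ribonuclease, was at 0.125, 0.654 and 0.395 CPM in the Mφ libraries and 224, 233 and 222 CPM in the M2 libraries (log2 fold change 9.13 ± 0.18 (SE), adjusted p = 5.9e-23). All 3 genes were at 2.62 CPM or less in every Mφ library and at 222 CPM or more in every M2 library. Ear2, a ribonuclease of the same family, had 2 counts in all Mφ libraries and 371 in the M2 libraries, a ratio of 202 with a 95% counting interval of 55.4 to 1671. The fibronectin gene Fn1 stood at 2.88, 2.23 and 2.89 CPM in the Mφ libraries and 402, 404 and 405 CPM in the M2 libraries (log2 fold change 7.23 ± 0.26 (SE), adjusted p = 2.8e-15), with M2 libraries close to each other.

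Other genes were among the 15 largest rises named by a rule that leaves out sparse genes. Ocstamp, needed for cell fusion, rose by 6.38 ± 0.28, Tmem26, a membrane protein gene, by 5.37 ± 0.31, and Flt1, the VEGF receptor 1, by 4.46 ± 0.14 log2 units. Lrrc32, whose product holds latent TGF-β at the cell surface, stood at 4.501, 3.53 and 3.68 CPM in the Mφ libraries and 83.3, 98.7 and 85.6 CPM in the M2 libraries. The lectin gene Mgl2 (CD301b) rose by 4.54 ± 0.18, the cationic amino acid transporter gene Slc7a2 by 4.27 ± 0.26 and Cd200r3, a CD200 receptor family member, by 4.25 ± 0.19. Bex1 (6.402), Eef1a2, a tissue-restricted elongation factor (5.37), and Ptprn, a phosphatase-like protein of secretory granules (4.78), completed the set. All 15 had M2 libraries that lay wholly above the Mφ libraries, which the choice of these genes required.

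**Figure D1:**
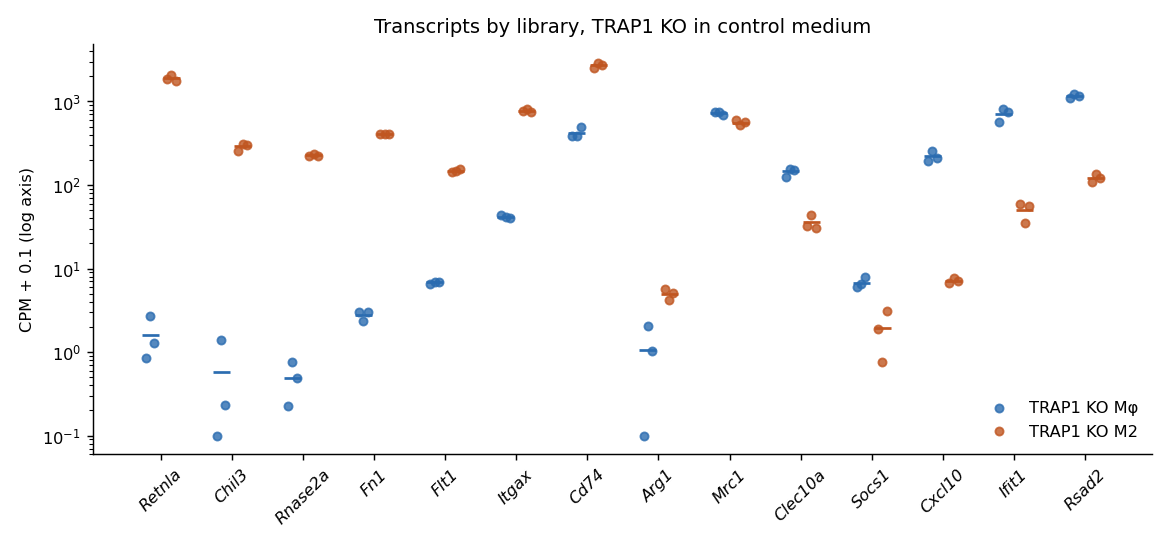
CPM plus 0.1 on a log axis for 14 genes in the 3 TRAP1 KO Mφ and 3 TRAP1 KO M2 libraries in control medium. Points are libraries and bars are group means. The first 8 genes are higher in M2, with Arg1 staying below 10 CPM, and Mrc1, Clec10a, Socs1, Cxcl10, Ifit1 and Rsad2 are lower.

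Of a list of 33 alternative activation effectors, 29 were tested, 22 rose and 4 fell, against 15.6% and 12.9% of all genes. The list's median log2 fold change was 2.79, or 2.41 with Ccl17 and Il31ra, which had no count in Mφ, set at their lower bounds. Among the chemokine ligands of this program, Ccl22 stood at 1.25, 1.31 and 0.263 CPM in the Mφ libraries and 16.5, 9.64 and 17.8 CPM in the M2 libraries (log2 fold change 3.93 ± 0.37 (SE), adjusted p = 8.0e-09) and Ccl24 2.001, 1.702 and 1.05 CPM in the Mφ libraries and 9.91, 11.8 and 11.6 CPM in the M2 libraries (log2 fold change 2.79 ± 0.27 (SE), adjusted p = 5.7e-09). Both ligands were sparse in Mφ and separated fully between the groups. Ccl17 had 0 counts in Mφ and 26 in M2, at least 3.14-fold higher with a floor of 3 counts per library, and the cytokine receptor gene Il31ra 0 and 23, at least 2.78-fold higher. Clec7a, the β-glucan receptor Dectin-1, rose by 1.55 ± 0.08, Cd300ld by 1.73 ± 0.11, the transferrin receptor gene Tfrc by 2.57 ± 0.09 and Il1rn, the IL-1 receptor antagonist, by 0.72 ± 0.10. Pdcd1lg2, the checkpoint ligand PD-L2, was at 0.2501, 1.05 and 0.395 CPM in the Mφ libraries and 5.25, 4.82 and 2.76 CPM in the M2 libraries (log2 fold change 2.89 ± 0.53 (SE), adjusted p = 1.1e-04). The calls of Ccl24 (2.36), Clec7a (1.22) and Tfrc (2.17) were lost with the second batch included.

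Several widely used M2 markers rose little or fell. Arg1, the arginase that competes with nitric oxide synthase for arginine, was at 0, 1.96 and 0.921 CPM in the Mφ libraries and 5.55, 4.15 and 4.96 CPM in the M2 libraries (log2 fold change 2.34 ± 0.44 (SE), adjusted p = 2.8e-04), so it rose but stayed under 6 CPM. The mannose receptor gene Mrc1 (CD206) fell, with 742, 747 and 679 CPM in the Mφ libraries and 597, 516 and 561 CPM in the M2 libraries (log2 fold change -0.37 ± 0.07 (SE), adjusted p = 2.2e-04). Clec10a, the lectin CD301a, fell, with 125, 157 and 153 CPM in the Mφ libraries and 32.3, 44.2 and 30.6 CPM in the M2 libraries (log2 fold change -2.02 ± 0.13 (SE), adjusted p = 1.6e-12). Neither gene overlapped between the groups. The anti-inflammatory cytokine gene Il10 fell (-2.72), and Ch25h, the cholesterol 25-hydroxylase, went from 68 to 3 counts, a ratio of 0.0480 (95% counting interval 0.00965 to 0.146). Cd163 (0.50 ± 0.23), Folr2 and Alox15 did not pass the test. The call of Mrc1 (-0.29) was lost with the second batch included.

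The promoters of genes that rose and carry a STAT6-type motif are shown because STAT6 is the IL-4-activated factor. The motif searched was TTCNNNNGAA on both strands, in windows of 250 bases before to 50 bases after each annotated start from RefSeq (GRCm38.p6). It occurred in 8 of 29 windows (27.6%) of the alternative activation list, for 6 of the 23 genes matched, against 6.95% of all 32851 windows, 5.75% of windows of genes that rose and 6.12% of those that fell. The interferon-stimulated list, whose 40 tested members all fell, held the same motif in 9 of 40 windows (22.5%), for 9 of the 33 genes matched. A match describes the letters in the window and is not a measured binding site. Of these genes, Retnla (chr16:48842359-48842658, plus strand), Tmem26 (chr10:68723496-68723795, plus strand) and Pdcd1lg2 (chr19:29410669-29410968, plus strand) are printed 5′ to 3′, with the motif in capitals.
Retnla: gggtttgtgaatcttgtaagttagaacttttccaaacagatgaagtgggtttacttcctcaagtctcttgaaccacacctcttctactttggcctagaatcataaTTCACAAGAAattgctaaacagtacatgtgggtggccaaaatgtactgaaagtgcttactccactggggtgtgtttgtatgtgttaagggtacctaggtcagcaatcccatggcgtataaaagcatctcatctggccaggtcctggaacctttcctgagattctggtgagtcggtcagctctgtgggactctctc
Tmem26: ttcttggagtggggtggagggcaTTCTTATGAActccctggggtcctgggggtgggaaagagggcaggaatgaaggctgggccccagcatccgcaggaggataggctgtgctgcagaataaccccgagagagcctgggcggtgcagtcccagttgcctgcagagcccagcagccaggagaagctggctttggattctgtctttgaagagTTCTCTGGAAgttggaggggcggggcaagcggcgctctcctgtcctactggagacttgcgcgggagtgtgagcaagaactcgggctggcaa
Pdcd1lg2: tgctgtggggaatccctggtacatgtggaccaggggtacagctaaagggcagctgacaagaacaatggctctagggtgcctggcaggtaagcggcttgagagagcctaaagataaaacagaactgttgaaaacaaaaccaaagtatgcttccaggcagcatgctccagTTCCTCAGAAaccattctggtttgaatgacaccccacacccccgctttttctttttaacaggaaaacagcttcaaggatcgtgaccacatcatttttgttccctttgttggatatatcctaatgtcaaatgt

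Genes of the IL-4 receptor and its signalling mostly moved little, in both directions. Of 21 tested, 5 rose and 8 fell (5 and 1 with the second batch included), with a median log2 fold change of -0.03. Without Mφ replicate 1 there were 3 rises, and 2 without M2 replicate 2. Il4ra, the IL-4-binding chain, fell slightly (83.03, 85.2 and 81.7 CPM in the Mφ libraries and 58.4, 70.03 and 65.4 CPM in the M2 libraries, log2 fold change -0.37 ± 0.11 (SE), adjusted p = 0.016), as did Stat6 (log2 fold change -0.39 ± 0.14 (SE), adjusted p = 0.037). The common γ chain gene Il2rg rose by 0.31 ± 0.10. The calls of Il4ra, Stat6 and Il2rg were lost without single libraries: Il4ra without Mφ replicate 2 (-0.35) or M2 replicate 1 (-0.29), Stat6 without Mφ replicate 1 (-0.30), M2 replicate 2 (-0.38) or M2 replicate 3 (-0.33), and Il2rg without Mφ replicate 1 (0.25) or M2 replicate 2 (0.25). With the second batch included, Il4ra was at 0.48 and Socs3 at 1.10, neither called. The feedback inhibitors went different ways. Socs1 fell, with 5.88, 6.41 and 7.76 CPM in the Mφ libraries and 1.801, 0.6695 and 3.03 CPM in the M2 libraries (log2 fold change -1.86 ± 0.34 (SE), adjusted p = 1.0e-04), and Socs3 fell (-1.41), whereas Socs2 rose, with 1.38, 0.654 and 1.32 CPM in the Mφ libraries and 6.45, 6.56 and 6.34 CPM in the M2 libraries (log2 fold change 2.51 ± 0.34 (SE), adjusted p = 1.3e-06). Cish, a STAT5 target in the same family, was at 1.38, 1.31 and 1.45 CPM in the Mφ libraries and 1.35, 4.42 and 2.62 CPM in the M2 libraries (log2 fold change 1.03 ± 0.36 (SE), adjusted p = 0.031), and its lowest M2 library lay within the Mφ range. That call was lost without each of the 3 Mφ replicates in turn (1.00 to 1.07) and without M2 replicate 2 (0.54). The calls of Stat6 (-0.24) and Socs1 (-0.79) were lost with the second batch included. The call of Il2rg (0.30) was lost with batch as a covariate.

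Of 29 transcription factor genes, 12 rose and 6 fell (median 0.08). The rises included factors of the IL-4 program. Egr2 was at 23.01, 33.4 and 31.96 CPM in the Mφ libraries and 156, 169 and 150.2 CPM in the M2 libraries (log2 fold change 2.43 ± 0.13 (SE), adjusted p = 2.6e-14), and Irf4, a STAT6 target required for M2 genes in other settings, was at 5.13, 6.02 and 5.79 CPM in the Mφ libraries and 12.9, 15.4 and 14.6 CPM in the M2 libraries (log2 fold change 1.34 ± 0.20 (SE), adjusted p = 8.1e-06). Klf4 rose by 1.83 ± 0.12, Bhlhe40 by 2.47 ± 0.16, Batf3 by 2.03 ± 0.24 and the mitochondrial coactivator gene Ppargc1b by 1.93 ± 0.18. Maf fell (-1.96) and Irf1, an interferon-responsive factor (-1.02). Pparg, the lipid-sensing nuclear receptor, stood at 44.9, 59.8 and 47.1 CPM in the Mφ libraries and 66.8, 18.7 and 67.6 CPM in the M2 libraries. M2 replicate 2 lay below all Mφ libraries while the other M2 libraries lay above them, and the gene did not pass the test (log2 fold change 0.01). Counting the second batch, 5 factor genes rose and 5 fell (median 0.47). The calls of Irf4 (1.11), Batf3 (1.66) and Ppargc1b (1.55) were lost with the second batch included.

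All 40 interferon-stimulated genes tested fell, against 12.9% of all genes tested, with a median log2 fold change of -2.33. They included 5 of the 15 largest falls named by the rule, which leaves out sparse genes. Rsad2, the antiviral enzyme viperin, was among the 10 most abundant genes that fell, with 1109.9, 1230.0 and 1171 CPM in the Mφ libraries and 108, 137 and 122 CPM in the M2 libraries (log2 fold change -3.25 ± 0.09 (SE), adjusted p = 8.1e-20), and Ifit1, which binds viral RNA, was at 570.2, 802 and 749 CPM in the Mφ libraries and 59.3, 34.8 and 55.7 CPM in the M2 libraries (log2 fold change -3.83 ± 0.26 (SE), adjusted p = 1.5e-09). Ifit2 fell (-4.12), Ifit3 (-3.88), Ifit3b (-4.02), Oasl1 (-3.78) and the ubiquitin-like modifier gene Isg15 (-3.55). Transcription factors of the pathway fell too, Stat2 (-1.61), Irf9 (-0.87) and Irf7 (-3.26). Ifitm3, a membrane protein that blocks viral entry, changed less, with 2775, 2543 and 2936 CPM in the Mφ libraries and 1595, 1801 and 1567 CPM in the M2 libraries (log2 fold change -0.73 ± 0.11 (SE), adjusted p = 5.0e-06). All 40 fell without Mφ replicate 1 and M2 replicate 2 as well, but with the second batch included 11 fell (median -0.96) and Oasl1 was at 0.05 and not called, and 12 fell with batch as a covariate (median -1.45). The calls of Ifit3 (-1.32), Isg15 (-1.51), Stat2 (-0.43), Irf9 (-0.33), Irf7 (-0.091) and Ifitm3 (-0.062) were lost with the second batch included.

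Cxcl10, an interferon-inducible chemokine not on that list, was at 196, 257 and 210.3 CPM in the Mφ libraries and 6.604, 7.498 and 6.895 CPM in the M2 libraries (log2 fold change -4.98 ± 0.17 (SE), adjusted p = 4.3e-18). Further genes were among the 15 largest falls named by the rule. Iigp1, an immunity-related GTPase, fell (-4.70), the guanylate-binding protein gene Gbp4 (-4.31), and the IFI200 family genes Ifi208 (-4.10) and Ifi205 (-5.27). Ifi205 varied in Mφ, with 9.63, 33.9 and 28.4 CPM in the Mφ libraries and 0.3002, 0.6695 and 0.827 CPM in the M2 libraries (adjusted p = 0.0011). Ly6a (Sca-1) fell (-4.57), Cd69, an early activation antigen (-4.41), Tnfsf10, the death ligand TRAIL (-3.85), Ms4a4c (-3.64) and Ctnnd2, a catenin (-3.69). The calls of Gbp4 (-1.59), Ifi208 (-1.27), Ly6a (-0.31), Cd69 (-0.97), Ms4a4c (-0.16) and Ctnnd2 (-1.32) were lost with the second batch included.

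The ISRE-type motif GAAANNGAAA, the element bound by interferon regulatory factors, was searched the same way. It was found in 23 of 40 windows (57.5%) of the interferon-stimulated list, for 21 of the 33 genes matched, against 3.44% of all windows, 6.91% of windows of genes that fell and 2.40% of those that rose. No window of the alternative activation list held it. Over all windows 95 held both motifs, which overlapped in 18. The promoters of Ifit1 (chr19:34640639-34640938, plus strand), Rsad2 (chr12:26456403-26456702, minus strand), Isg15 (chr4:156200769-156201068, minus strand) and Cxcl10 (chr5:92348840-92349139, minus strand) are shown because these genes fell and hold the motif, which is in capitals. Cxcl10 is from outside the list.
Ifit1: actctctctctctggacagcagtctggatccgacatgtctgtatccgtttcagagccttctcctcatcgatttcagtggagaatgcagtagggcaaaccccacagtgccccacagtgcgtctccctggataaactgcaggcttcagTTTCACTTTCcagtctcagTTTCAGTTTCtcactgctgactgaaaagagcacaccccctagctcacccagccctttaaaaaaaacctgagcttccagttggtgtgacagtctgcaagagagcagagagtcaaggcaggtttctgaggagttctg
Rsad2: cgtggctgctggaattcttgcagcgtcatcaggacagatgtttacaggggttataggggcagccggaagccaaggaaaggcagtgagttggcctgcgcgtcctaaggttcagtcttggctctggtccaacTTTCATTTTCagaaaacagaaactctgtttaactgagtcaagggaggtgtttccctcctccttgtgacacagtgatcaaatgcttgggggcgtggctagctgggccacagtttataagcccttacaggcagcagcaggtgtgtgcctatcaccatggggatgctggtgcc
Isg15: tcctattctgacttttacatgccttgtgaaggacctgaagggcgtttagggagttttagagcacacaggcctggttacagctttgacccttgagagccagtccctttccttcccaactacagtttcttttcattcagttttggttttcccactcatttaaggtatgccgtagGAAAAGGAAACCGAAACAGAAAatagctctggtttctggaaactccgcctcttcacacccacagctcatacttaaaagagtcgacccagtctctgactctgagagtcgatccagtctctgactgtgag
Cxcl10: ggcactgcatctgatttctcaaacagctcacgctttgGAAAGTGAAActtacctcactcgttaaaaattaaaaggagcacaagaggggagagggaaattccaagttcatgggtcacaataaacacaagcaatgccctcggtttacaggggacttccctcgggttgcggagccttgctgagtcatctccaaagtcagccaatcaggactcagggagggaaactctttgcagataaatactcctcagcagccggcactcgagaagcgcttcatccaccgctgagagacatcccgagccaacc

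Among inflammatory genes, 14 of 24 tested fell and 3 rose (median -1.31). Saa3, an acute-phase apolipoprotein, was at 75.4, 79.3 and 77.7 CPM in the Mφ libraries and 6.004, 7.63 and 11.03 CPM in the M2 libraries (log2 fold change -3.23 ± 0.16 (SE), adjusted p = 8.6e-15), and Acod1, the enzyme that makes itaconate, was at 51.02, 62.96 and 61.1 CPM in the Mφ libraries and 10.8, 12.9 and 11.3 CPM in the M2 libraries (log2 fold change -2.32 ± 0.16 (SE), adjusted p = 1.2e-11). The groups did not overlap for either gene. The Fc receptor gene Fcgr1 fell (-2.11), the costimulatory gene Cd86 (-1.48), the pattern receptor Tlr2 (-1.56) and the inflammasome sensor Nlrp3 (-1.37). Counting the second batch, 6 of the 24 fell (median -0.12), and Cd86 was at 1.17 and not called. Mmp13, the homing receptor gene Ccr7 and Tlr4 were the members that rose, by 2.27 ± 0.11, 2.84 ± 0.36 and 0.20 ± 0.08. The call of Tlr4 was lost without each of 5 libraries in turn, all but Mφ replicate 2 (0.15 to 0.22). Nos2, the inducible nitric oxide synthase, went from 23 to 2 counts (ratio 0.0945, 95% counting interval 0.0108 to 0.383), and Il1b (0.32 ± 0.22) did not pass the test. With the second batch included Il1b rose (3.24), but it was not called with batch as a covariate (1.73). The calls of Fcgr1 (-0.17), Tlr2 (-0.87), Nlrp3 (-0.31) and Tlr4 (0.28) were lost with the second batch included.

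The chemokine list split, with 12 of 29 tested genes up and 9 down (median 0.16, but 1.28 with the second batch included, 0.063 without Mφ replicate 1 and 0.080 without M2 replicate 2). Ccl6 rose, with 969.7, 995 and 933 CPM in the Mφ libraries and 3077, 3185 and 2988 CPM in the M2 libraries (log2 fold change 1.67 ± 0.07 (SE), adjusted p = 7.0e-17), and Ccl9 was at 884, 995 and 992 CPM in the Mφ libraries and 2300.3, 2431 and 2266 CPM in the M2 libraries (log2 fold change 1.29 ± 0.08 (SE), adjusted p = 3.6e-13). Both are abundant CC chemokines of myeloid cells. Cxcl14 rose by 3.19 ± 0.27, Ccl8 by 1.43 ± 0.13 and the receptor genes Ccr1 by 2.41 ± 0.29 and Ccr3 by 1.43 ± 0.14. Interferon-inducible ligands were among the falls. Ccl5 was at 69.4, 77.2 and 83.6 CPM in the Mφ libraries and 8.41, 11.1 and 11.4 CPM in the M2 libraries (log2 fold change -2.89 ± 0.15 (SE), adjusted p = 1.9e-14), Ccl12 fell (-2.58) and Cxcl9 had 89 counts in Mφ and 2 in M2. Cx3cr1, the fractalkine receptor, fell, with 40.01, 45.8 and 50.6 CPM in the Mφ libraries and 12.3, 12.7 and 10.5 CPM in the M2 libraries (log2 fold change -1.94 ± 0.13 (SE), adjusted p = 7.1e-12). Ccl2, a monocyte attractant, was at 197, 219 and 233 CPM in the Mφ libraries and 466, 279 and 457 CPM in the M2 libraries and rose by 0.89 ± 0.27, with M2 replicate 2 well below the other M2 libraries. Its call was lost without Mφ replicate 1 (0.82), Mφ replicate 2 (0.90), M2 replicate 1 (0.77) or M2 replicate 3 (0.79). The calls of Ccl8 (1.03) and Ccr3 (1.06) were lost with the second batch included. The call of Ccl12 (-1.83) was lost with batch as a covariate.

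The genes of MHC class II rose together. Of 11 tested, 9 rose and none fell (median 1.67). Cd74, the invariant chain, was at 381, 391 and 497 CPM in the Mφ libraries and 2507, 2916 and 2710.5 CPM in the M2 libraries (log2 fold change 2.68 ± 0.11 (SE), adjusted p = 1.8e-16), and H2-Ab1, a β chain of the antigen-presenting dimer, was at 187, 189 and 209.7 CPM in the Mφ libraries and 932, 882 and 912 CPM in the M2 libraries (log2 fold change 2.22 ± 0.08 (SE), adjusted p = 2.4e-17). All M2 libraries lay above all Mφ libraries for both. H2-Aa rose by 2.11 ± 0.08, H2-Eb1 by 2.14 ± 0.10, H2-DMa by 1.49 ± 0.10 and Ciita, the transactivator of these genes, by 1.67 ± 0.16. H2-DMb2 and H2-Ob (-1.11 ± 0.54) did not pass the test. The call of Ciita (1.26) was lost with the second batch included.

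Fusion and osteoclast-type genes rose in 16 of 20 cases and fell in 2 (median 1.30). Dcstamp, the fusion receptor, stood at 22.1, 25.4 and 23.4 CPM in the Mφ libraries and 272, 275 and 268 CPM in the M2 libraries (log2 fold change 3.52 ± 0.10 (SE), adjusted p = 1.7e-19), and Atp6v0d2, a proton pump subunit needed for fusion, 139.5, 143 and 133 CPM in the Mφ libraries and 817, 879 and 780.0 CPM in the M2 libraries (log2 fold change 2.58 ± 0.08 (SE), adjusted p = 4.9e-19). The bone-resorbing enzymes tartrate-resistant acid phosphatase (Acp5) and cathepsin K (Ctsk) rose by 3.57 ± 0.26 and 2.77 ± 0.13, and the carbonic anhydrase gene Car2 by 3.62 ± 0.28. The adhesion gene Cdh1 (E-cadherin) had 1 count in Mφ and 54 in M2, a ratio of 58.7 (95% counting interval 10.1 to 2361). Cd47 and Nfatc1, the master factor of osteoclasts, were the members that fell (-0.40 and -0.66).

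Matrix genes rose in 16 of 25 cases and fell in 3 (median 0.83). Mmp12, macrophage elastase, was among the 10 most abundant genes that rose, with 590.4, 707 and 666 CPM in the Mφ libraries and 9856, 9742 and 9773 CPM in the M2 libraries (log2 fold change 3.90 ± 0.12 (SE), adjusted p = 4.6e-19). Mmp9, a gelatinase, was at 34.8, 34.2 and 37.3 CPM in the Mφ libraries and 229.9, 246 and 237 CPM in the M2 libraries (log2 fold change 2.75 ± 0.12 (SE), adjusted p = 2.5e-16), and its inhibitor gene Timp1 rose by 3.23 ± 0.17. Mmp14, F13a1 and Mmp27 fell (-1.51, -2.02 and -0.84). Of 36 cathepsin and lysosome genes, 22 rose and none fell (median 0.51), and 14 rose with the second batch included. Ctsl rose by 1.87 ± 0.14, the proton pump gene Atp6v0a1 by 1.34 ± 0.09, and the abundant Ctsb, Ctsd and Ctss by 0.50 ± 0.09, 0.74 ± 0.08 and 1.07 ± 0.06. Gpnmb, a lysosomal glycoprotein gene, stood at 8724, 9528 and 10348 CPM in the Mφ libraries and 25147, 22586 and 25019.8 CPM in the M2 libraries (log2 fold change 1.35 ± 0.08 (SE), adjusted p = 8.1e-13). The calls of Atp6v0a1 (1.02) and Ctsb (0.29) were lost with the second batch included. The call of Mmp27 (-0.60) was lost with batch as a covariate.

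**Figure D2:**
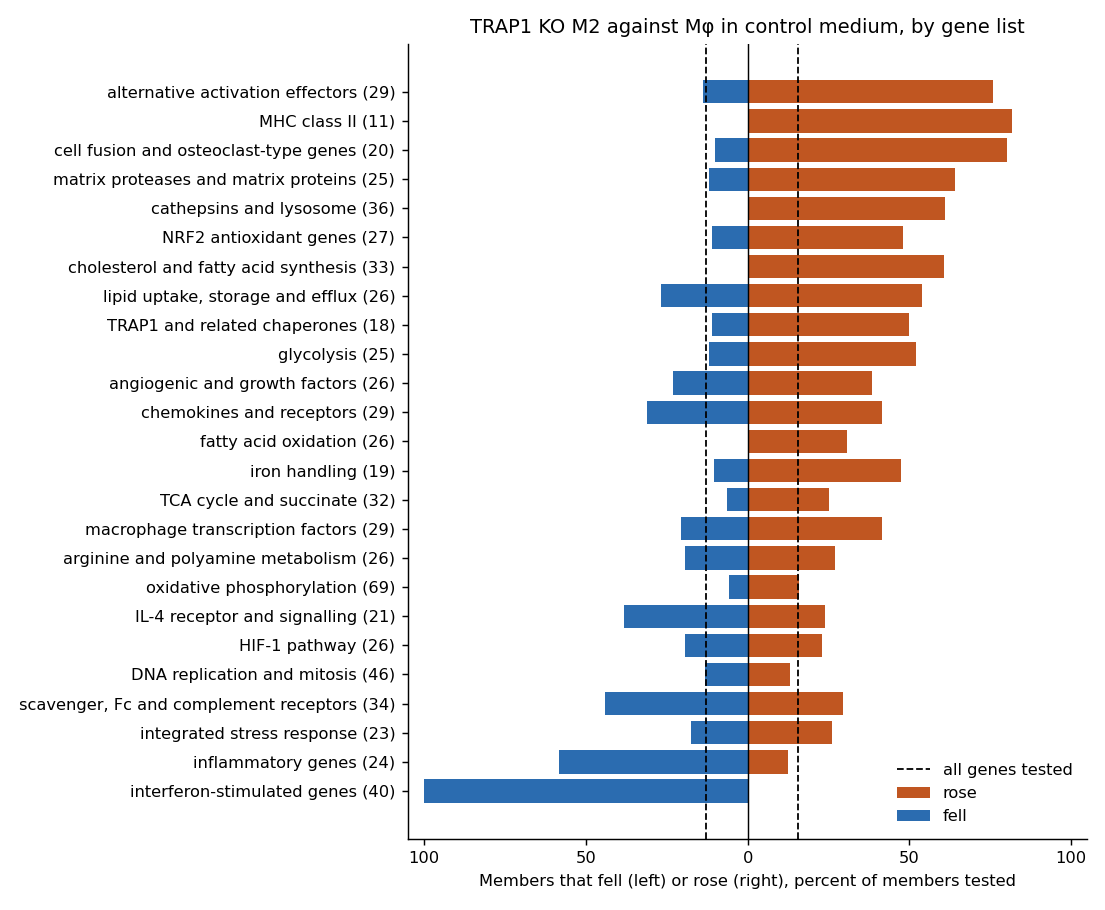
Share of tested members that rose (right) or fell (left) in TRAP1 KO M2 against Mφ in control medium, in percent, for 25 gene lists ordered by median log2 fold change, with the number tested in parentheses. Dashed lines mark the shares over all genes tested, 15.6% and 12.9%. All 40 interferon-stimulated genes fell, and 22 of 29 alternative activation effectors rose.

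In the list of scavenger, Fc and complement receptor genes 10 of 34 were up and 15 down (median -0.11), and 7 up and 8 down with the second batch included. Integrin genes were among the rises. Itgax (CD11c) was at 43.5, 40.97 and 40.1 CPM in the Mφ libraries and 765, 816 and 751 CPM in the M2 libraries (log2 fold change 4.23 ± 0.09 (SE), adjusted p = 4.2e-22), and its partner Itgb2 rose by 1.95 ± 0.08 and Itgam (CD11b) by 1.29 ± 0.13. The scavenger receptor genes Cd36 and Msr1 rose by 2.98 ± 0.11 and 1.71 ± 0.07. Among the 15 that fell were Mertk, a receptor for dying cells (-0.71), Stab1 (-1.95), C1qa (-1.08), C1qc (-0.76) and C3 (-1.001). Clec4e, the receptor Mincle, fell, with 64.8, 79.2 and 81.01 CPM in the Mφ libraries and 14.7, 18.3 and 14.3 CPM in the M2 libraries (log2 fold change -2.24 ± 0.12 (SE), adjusted p = 4.2e-14), but was at 1.23 and not called with the second batch included.

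Lipid handling genes rose in 14 of 26 cases and fell in 7 (median 0.35), with 8 rises when the second batch was included. Cd36, the fatty acid transporter, was at 256, 294 and 281 CPM in the Mφ libraries and 2272, 2019 and 2249 CPM in the M2 libraries, and Lpl, lipoprotein lipase, at 7464, 8618 and 7947 CPM in the Mφ libraries and 16193, 17337 and 16706 CPM in the M2 libraries (log2 fold change 1.06 ± 0.08 (SE), adjusted p = 1.9e-11). The groups lay apart for both. Lipa, the lysosomal acid lipase, rose by 0.98 ± 0.07, Mgll, which cleaves monoglycerides, by 2.18 ± 0.16 and Soat1, which esterifies cholesterol, by 1.12 ± 0.09. The apolipoprotein gene Apoe fell (-0.93), and the sterol exporter gene Abca1 (-0.57). Of 33 genes of cholesterol and fatty acid synthesis, 20 rose and none fell (median 0.39), and 4 rose with the second batch included. The changes were small, among them Sqle (0.83 ± 0.08), Cyp51 (0.98 ± 0.09) and Scd2 (0.92 ± 0.09). M2 replicate 2 was the lowest M2 library for Srebf1, with 43.1, 38.6 and 45.1 CPM in the Mφ libraries and 63.3, 28.5 and 53.2 CPM in the M2 libraries, and that gene did not pass the test. The calls of Lpl (0.70), Lipa (0.64), Mgll (1.78) and Cyp51 (0.72) were lost with the second batch included.

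Glycolysis genes rose in 13 of 25 cases and fell in 3 (median 0.29), with 1 fall without M2 replicate 1 or M2 replicate 3. The glucose transporter gene Slc2a1 was at 38.01, 46.7 and 40.9 CPM in the Mφ libraries and 119, 122.7 and 117 CPM in the M2 libraries (log2 fold change 1.51 ± 0.11 (SE), adjusted p = 1.5e-11), hexokinase 2 (Hk2) rose by 0.71 ± 0.10 and Pfkp by 0.91 ± 0.08. Aldoc fell (-1.76). The mitochondrial lists shifted less. In fatty acid oxidation 8 of 26 genes rose and none fell (median 0.13), including Cpt1a, which admits fatty acids to mitochondria (0.49 ± 0.09). There were 5 rises without Mφ replicate 1, 4 without M2 replicate 2, 4 without both, and 1 with the second batch included. In the TCA cycle and succinate list 8 of 32 rose and 2 fell (median 0.08; 4 and 2 with the second batch included), with Mdh2, malate dehydrogenase, up by 0.63 ± 0.07. In that list 5 rose and 5 fell without Mφ replicate 1, and 5 rose without M2 replicate 3. Sdhd, the membrane anchor of succinate dehydrogenase, held 72.5, 87.3 and 104 CPM in the Mφ libraries and 119.6, 8.302 and 85.8 CPM in the M2 libraries, so that M2 replicate 2 stood alone and no change was called (log2 fold change -0.31 ± 0.78). Among 69 oxidative phosphorylation genes encoded in the nucleus 11 rose, near the 15.6% of all genes, and 4 fell (median 0.04). There were 6 rises with the second batch included, 4 without Mφ replicate 1, 4 without M2 replicate 2 and 3 without both. Over all genes, rises in these 4 settings were 1379 of 13723, 1797 of 13914, 1849 of 13923 and 1643 of 13872. The list had 2 falls without Mφ replicate 2, M2 replicate 2 or M2 replicate 3. The call of Cpt1a (0.28) was lost with the second batch included.

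Of 13 mitochondrially encoded protein-coding genes tested, a group counted after the values were seen, 9 rose and none fell (median 0.75), and 1 rose with the second batch included. ND4 and ND1, subunits of complex I, and CYTB, of complex III, were among the 10 most abundant genes that rose, by 1.01 ± 0.12, 0.82 ± 0.10 and 0.92 ± 0.09. ND4 stood at 11572, 13933 and 15494 CPM in the Mφ libraries and 29468, 26386 and 26543 CPM in the M2 libraries. These rises stand beside the larger mitochondrial share of counts in M2 libraries given above, whose part in other results was not tested. Among the 10 most abundant genes that fell were Rpl37 (-0.31 ± 0.09), Rps29 (-0.38 ± 0.09) and Rpl34 (-0.31 ± 0.08), ribosomal protein genes, Eef1a1 (-0.32 ± 0.09), Serinc3 (-1.01 ± 0.10) and Marcks (-0.57 ± 0.14). The falls of the ribosomal protein genes stand beside the lower ribosomal protein share of M2 libraries, whose part in other results was not tested. Eef1a1 lost its call without Mφ replicate 2 (-0.28), M2 replicate 1 (-0.31) or M2 replicate 3 (-0.25), Rpl37 without M2 replicate 1 (-0.27) or 3 (-0.23), and Rpl34 without M2 replicate 3 (-0.23). Lgals3, galectin-3, rose by 0.60 ± 0.07. The calls of ND4 (0.66), ND1 (0.50), CYTB (0.59), Rpl37 (-0.15), Rps29 (-0.23), Rpl34 (-0.20), Eef1a1 (-0.19) and Lgals3 (0.43) were lost with the second batch included.

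Growth factor genes rose in 10 of 26 cases and fell in 6 (median 0.25). With the second batch included 7 rose (median 0.50), and 4 with batch as a covariate (median 0.37). The median was 0.064 without Mφ replicate 1, 0.62 without Mφ replicate 2, 0.11 without M2 replicate 1 and 0.39 without M2 replicate 2. Igf1 was at 1041, 1202 and 1201 CPM in the Mφ libraries and 2625, 2879 and 2628 CPM in the M2 libraries (log2 fold change 1.24 ± 0.08 (SE), adjusted p = 4.6e-13), Pdgfa rose by 1.59 ± 0.09, Hbegf by 2.06 ± 0.13, Hgf by 1.09 ± 0.11 and Vegfa by 0.81 ± 0.11. Gas6, a ligand of Mertk and Axl, fell (-1.71) and Vegfb (-0.89). Of 26 HIF-1 pathway genes 6 rose and 5 fell (median -0.05), or 5 and 1 with the second batch included (median 0.27), and 3 fell without Mφ replicate 2 or M2 replicate 1. Pdgfb stood at 33.3, 29.97 and 31.6 CPM in the Mφ libraries and 74.3, 16.1 and 68.3 CPM in the M2 libraries and did not pass the test, M2 replicate 2 being the lowest of all 6 libraries. Without that library Pdgfb passed the test (1.18). The calls of Igf1 (0.90), Hbegf (1.67) and Hgf (0.80) were lost with the second batch included. The call of Vegfa (1.74) was lost with batch as a covariate.

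In the arginine and polyamine list 7 of 26 rose and 5 fell (median 0.05), or 7 and 1 with the second batch included, and in the iron list 9 of 19 rose and 2 fell (median 0.10), with 4 rises when the second batch was included. The iron exporter gene Slc40a1 (ferroportin) fell (-1.33) and the ferroxidase gene Cp (-3.26), while heme oxygenase 1 (Hmox1) rose by 0.91 ± 0.15. NRF2 antioxidant genes rose in 13 of 27 cases and fell in 3 (median 0.41), among them the cystine transporter gene Slc7a11 with 5.38, 4.19 and 4.34 CPM in the Mφ libraries and 36.5, 33.1 and 34.5 CPM in the M2 libraries (log2 fold change 2.90 ± 0.15 (SE), adjusted p = 1.0e-14). Integrated stress response genes rose in 6 of 23 cases and fell in 4 (median -0.13), but with the second batch included 6 rose and none fell (median 1.35). The list of TRAP1 and related chaperones held 18 tested genes, among them Trap1 itself, which had no count in these libraries. In it 9 rose and 2 fell (median 0.30), or 5 and 2 with the second batch included.

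The DNA replication and mitosis list was close to the background, with 6 of 46 genes up and 6 down (median -0.09), and none up and 2 down with the second batch included (median -0.35). There were 3 rises without M2 replicate 2, and 3 falls without Mφ replicate 3 or M2 replicate 3. Top2a, topoisomerase IIα, stood at 213, 131 and 137 CPM in the Mφ libraries and 126, 127 and 142 CPM in the M2 libraries and Mki67 at 92.8, 62.7 and 53.8 CPM in the Mφ libraries and 61.4, 57.7 and 66.7 CPM in the M2 libraries. Neither passed the test (-0.28 ± 0.28 and -0.17 ± 0.38), and Mφ replicate 1 was the highest library for both. Pcna, the replication clamp, rose by 0.78 ± 0.14 and Ccnb2, a mitotic cyclin, fell (-0.84). The call of Pcna (0.45) was lost with the second batch included.

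Macrophage markers were high in every library, with a summed level of 9958 to 13244 CPM in Mφ and 10583 to 11246 CPM in M2, although 6 of the 10 fell and 1 rose. The neutrophil list summed to 2.001 to 2.89 CPM in Mφ and 12.5 to 14.1 CPM in M2, with S100a8 and S100a9 up of 4 tested members, and its defining gene Ly6g had at most 0.250 CPM. The eosinophil list rose from 16.4 to 21.1 CPM to 91.6 to 103 CPM through Siglecf and Ccr3, while Epx, Prg2 and Il5ra were at 0 in all 6 libraries. Cd3e, Cd79a, Ighm, Mcpt4, Tek and Emcn had no counts either. In the mast cell and basophil list 2 of 4 tested genes rose, among them Mcpt8 with 0 counts in Mφ and 17 in M2 (at least 2.05-fold higher), and 1 fell. The T and NK cell list had 1 rise and 1 fall of 2 tested, the endothelial list the same with Vwf up and Kdr down, the dendritic cell list 1 fall of 3, and no tested B cell or fibroblast gene passed. With the second batch included 3 macrophage markers fell, and no neutrophil or mast cell gene rose. In bulk libraries fewer cells of a type and less RNA per cell cannot be told apart, and the part of these cells in the results was not tested.

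WT macrophages of the same batch, 3 M2 and 3 Mφ libraries in control medium, gave 2595 genes that rose (19.1%) and 2470 that fell (18.1%). Of the genes called in TRAP1 KO, 2719 (70.0%) were called in the same direction in WT, which is 53.7% of the WT calls, and 61 were called in opposite directions. The 2 comparisons share no library but come from 1 fit. The difference between the genotypes in the IL-4 change was tested as an interaction. It passed for 964 genes, 526 higher in TRAP1 KO (3.86%) and 438 lower (3.22%). With the second batch included 170 of 13723 genes passed, 90 higher and 80 lower, and 122 passed with batch as a covariate. For 470 of the 964 the change had the same sign in both and was smaller in TRAP1 KO, for 113 it was larger, and for 381 the sign was opposite. Every TRAP1 KO library of batch 1 held 0 to 9 Xist counts against 2079 to 4010 in the WT libraries, although the sources describe all mice as female, so that loss of TRAP1 and whatever underlies the missing Xist cannot be told apart in this interaction.

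Arg1 led the lower differences named by the rule, which leaves out sparse genes. It was at 0.359 ± 0.183 CPM in WT Mφ and 92.02 ± 7.29 CPM in WT M2, a log2 fold change of 7.92 there (difference -5.57 ± 0.80 (SE), adjusted p = 9.3e-05). Mgl2 had a difference of -4.76 ± 0.37 (SE), adjusted p = 3.3e-09, with a rise of 9.30 in WT and 4.54 in TRAP1 KO. Socs1 rose in WT, with 3.93 ± 1.26 CPM in WT Mφ and 27.4 ± 4.09 CPM in WT M2, and fell in TRAP1 KO (difference -4.66 ± 0.43 (SE), adjusted p = 3.4e-08). Edn1, the endothelin 1 gene, and Rnase2a differed by -4.24 and -3.40, and the call of Rnase2a was lost without TRAP1 KO Mφ replicate 2 (-2.84). Of 29 tested alternative activation genes 12 had a lower and 3 a higher change in TRAP1 KO, against 3.22% and 3.86% of all genes. With the second batch included these were 3 and none. In TRAP1 KO 22 rose and 4 fell, and in WT 23 and 4, against 19.1% and 18.1% of all genes in WT. List medians were 2.79 in TRAP1 KO and 5.66 in WT, and the median difference per gene was -1.23. With lower bounds the TRAP1 KO median was 2.41, and no such bound was computed for WT. Clec10a rose in WT (0.76) but fell in TRAP1 KO (difference -2.78 ± 0.18 (SE), adjusted p = 4.8e-11). The feedback inhibitor Cish, at 4.24 in WT, differed by -3.21, and Socs2 by -2.74. The genotype differences of Rnase2a (-3.81), Cish (-2.27) and Socs2 (-2.28) were lost with the second batch included.

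Inflammatory and chemokine genes also separated the genotypes. Ccl5 was at 12.8 ± 0.988 CPM in WT Mφ and 18.3 ± 1.36 CPM in WT M2 and rose there (0.52), whereas it fell in TRAP1 KO (difference -3.40 ± 0.21 (SE), adjusted p = 3.0e-11). The WT rise was not called without WT M2 replicate 3 (0.44). Acod1 did not pass the test in WT (0.25) and differed by -2.57, and Nos2 by -5.67. C3, a complement component, rose in WT (1.75) and fell in TRAP1 KO (difference -2.75 ± 0.13 (SE), adjusted p = 7.6e-14). Fn1 was 1 of the 3 alternative activation genes with a higher change in TRAP1 KO (difference 1.75 ± 0.38 (SE), adjusted p = 0.0048). The interferon-stimulated list had medians of -2.33 in both genotypes, with 39 of 40 falling in WT against 18.1% of all genes. In TRAP1 KO 3 members had a higher and 7 a lower change, against 3.86% and 3.22% of all genes. These were none and 1 with the second batch included. The genotype difference of Fn1 (1.48) was lost with the second batch included. The genotype difference of Nos2 (-4.94) was lost with batch as a covariate. The WT call of Ccl5 (0.74) was lost with the second batch included.

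**Figure D3:**
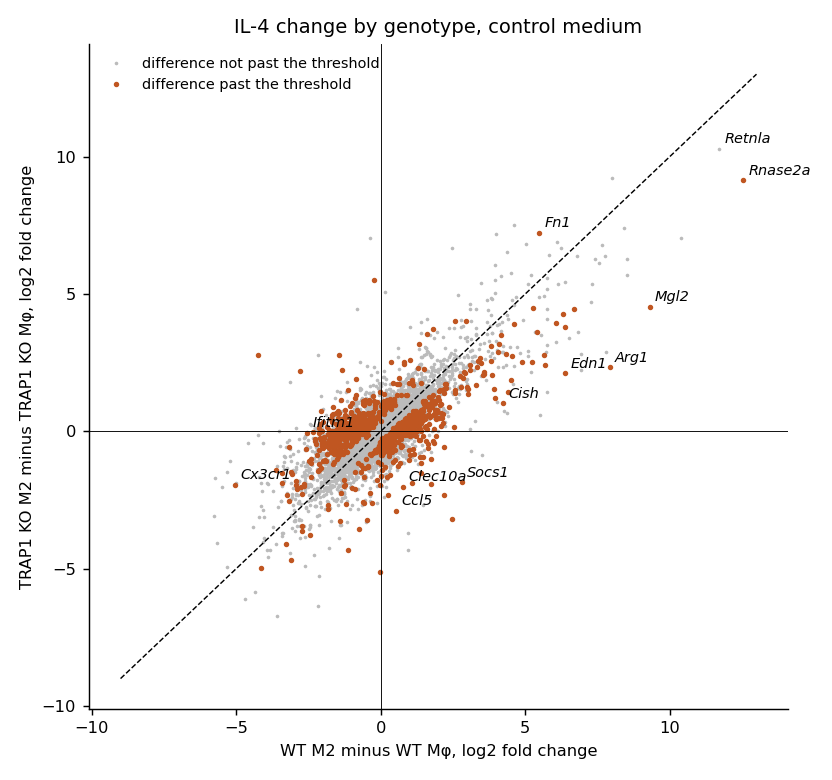
Log2 fold change of M2 against Mφ in control medium in WT (horizontal) and TRAP1 KO macrophages (vertical) for 13614 genes. Orange marks the 964 genes whose change differed between genotypes and the dashed line marks equal change. Arg1, Mgl2, Edn1 and Rnase2a lie below the line on the right, and Socs1, Clec10a and Ccl5 lie at positive WT and negative TRAP1 KO values.

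DNA replication and mitosis genes had higher changes in TRAP1 KO. None of the 46 rose in WT and 42 fell (median -1.24), against 19.1% and 18.1% of all genes tested. A higher change in TRAP1 KO was called for 39 (median difference 1.20), against 3.86% of all genes. None of the 46 differences passed with the second batch included (median 1.01), against 170 of 13723 genes tested. Pbk, a mitotic kinase, was at 48.9 ± 3.64 CPM in WT Mφ and 12.01 ± 1.83 CPM in WT M2 and was at 17.5, 16.9 and 16.4 CPM in the Mφ libraries and 17.4, 17.8 and 16.7 CPM in the M2 libraries in TRAP1 KO (difference 2.05 ± 0.18 (SE), adjusted p = 1.1e-08). Relative to WT Mφ, the median list member stood at -1.24 log2 units in WT M2, -1.11 in Mφ and -1.19 in M2 without TRAP1. Cx3cr1 (3.12), Ifitm1 (2.49), Mtus1 (2.28) and Alox5, the 5-lipoxygenase gene (2.02), were the other largest higher differences, and each fell in WT. Oxidative phosphorylation genes rose in 51 of 69 cases in WT (median 0.36), against 19.1% of all genes. In TRAP1 KO 10 had a lower and none a higher change, against 3.22% and 3.86% of all genes. None of these differences passed with the second batch included. The genotype differences of Pbk (1.75) and Ifitm1 (5.79) were lost with the second batch included. The genotype difference of Cx3cr1 (2.66) was lost with batch as a covariate.

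**Figure D4:**
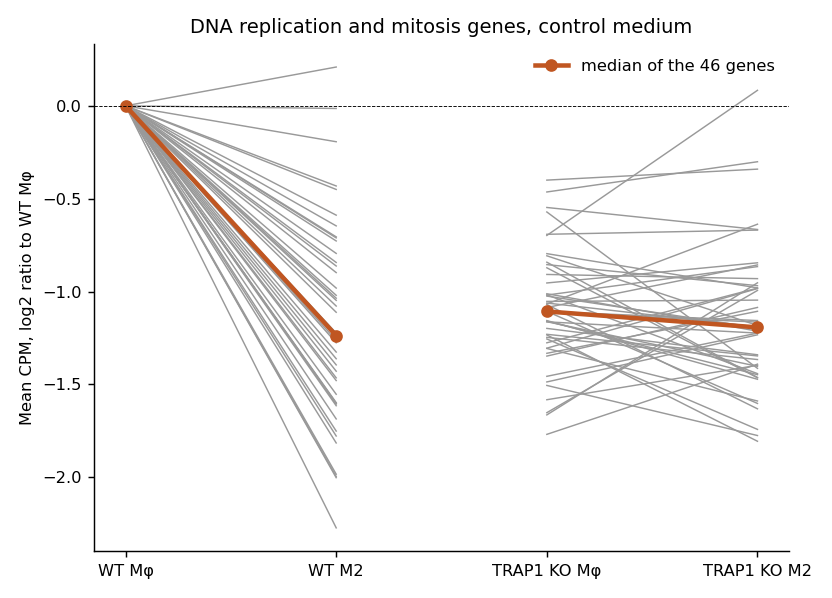
Mean CPM of 46 DNA replication and mitosis genes as log2 ratio to WT Mφ, in the 4 groups in control medium. Grey lines are genes and the orange line is their median, which fell from 0 to -1.24 in WT and lay at -1.11 and -1.19 in TRAP1 KO Mφ and M2.

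In MPNST-CM, TRAP1 KO M2 and Mφ differed less. There 913 genes rose (6.71%) and 609 fell (4.47%) among 3 libraries a group. Of the genes called in control medium, 936 (24.1%) were called in the same direction in MPNST-CM, 61.5% of the calls there, and 103 in opposite directions. The difference between media passed the interaction test for 1564 genes, 746 higher in MPNST-CM (5.48%) and 818 lower (6.01%), and for 407 with the second batch included. For 674 of the 1564 the change had the same sign and was larger in control medium, for 69 it was smaller, and for 821 the sign was opposite.

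All 40 interferon-stimulated genes had a higher M2 minus Mφ difference in MPNST-CM than in control medium, against 5.48% of all genes. In MPNST-CM 17 rose and 2 fell (median 0.39), against 6.71% and 4.47% of all genes. Only 5 of the 40 differences passed with the second batch included, all higher (median 0.88 against 2.69), and none of the 40 rose or fell in MPNST-CM. Over all 13723 genes in that fit 175 differences were higher, and 329 genes rose and 146 fell in MPNST-CM. Rsad2 was at 250.2 ± 3.46 CPM in Mφ and 546 ± 15.1 CPM in M2 macrophages in MPNST-CM (difference 4.38 ± 0.12 (SE), adjusted p = 2.8e-19) and Ifit2 at 52.4 ± 4.73 CPM in Mφ and 92.3 ± 5.504 CPM in M2 macrophages (difference 4.93 ± 0.16 (SE), adjusted p = 4.2e-18). Cxcl10 was low in both states there, at 4.95 ± 0.786 CPM in Mφ and 5.27 ± 1.15 CPM in M2 macrophages (difference 5.07 ± 0.28 (SE), adjusted p = 2.4e-13). Ifit1bl1, of the same antiviral family, and Iigp1 differed by 5.16 and 4.81. Tlr5, the flagellin receptor, had 21 counts in control Mφ and 0 in control M2, at least 2.15-fold lower, and differed by 5.24 between media, a fitted value that depends on the prior count. That call was lost without control Mφ replicate 2 (4.61) or each of the 3 control M2 replicates in turn (5.18 to 5.19). The medium differences of Rsad2 (2.55) and Ifit2 (2.91) were lost with the second batch included. The MPNST-CM calls of Rsad2 (0.79) and Ifit2 (0.49) were lost with the second batch included.

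**Figure D5:**
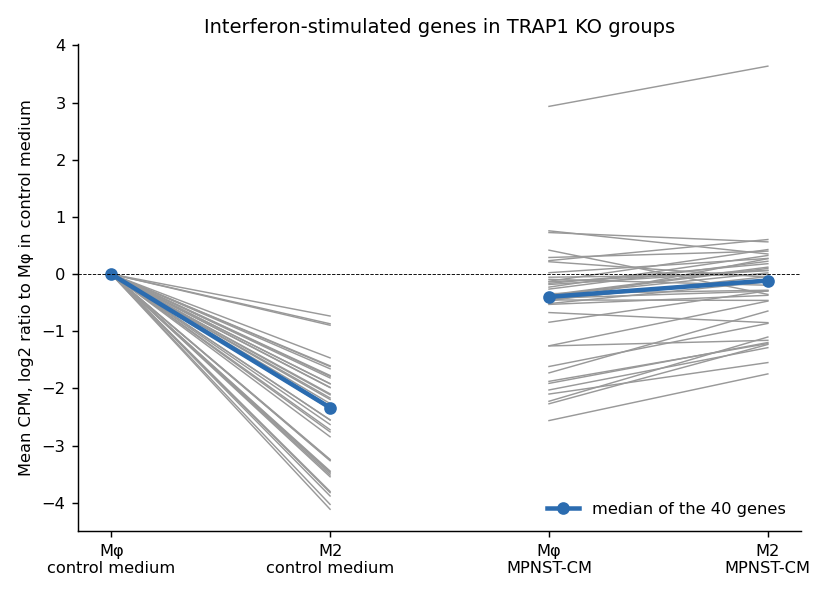
Mean CPM of 40 interferon-stimulated genes in TRAP1 KO macrophages as log2 ratio to Mφ in control medium. Grey lines are genes and the blue line is their median, at -2.34 in M2 in control medium, -0.40 in Mφ and -0.11 in M2 in MPNST-CM.

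Other genes had a smaller or no M2 rise in MPNST-CM. Fn1 was at 1.89 ± 1.56 CPM in Mφ and 12.1 ± 0.989 CPM in M2 macrophages there (difference -4.55 ± 0.48 (SE), adjusted p = 6.6e-07), Bex1 differed by -4.81 and Galnt9, a glycosyltransferase, by -3.24. Mmp8, a neutrophil-type collagenase that rose in control medium (1.74), fell in MPNST-CM (-2.31; difference -4.05 ± 0.16 (SE), adjusted p = 2.7e-16). Arg1 went the other way, with 2.67 ± 1.32 CPM in Mφ and 228 ± 7.03 CPM in M2 macrophages in MPNST-CM, a log2 fold change of 6.41 (difference 4.07 ± 0.67 (SE), adjusted p = 2.3e-04). Clec10a and Mrc1, which fell in control medium, rose in MPNST-CM by 1.23 and 0.43 (differences 3.25 and 0.81). Retnla still rose there, by 7.87 (difference -2.41), a difference not called without MPNST-CM Mφ replicate 1 (-1.81). With the second batch included the differences of Retnla, Galnt9 and Tlr5 were 0.48, 0.15 and -3.58, none of them called. Glycolysis genes rose in none of 25 cases and fell in 12, against 6.71% and 4.47% of all genes tested. A lower change than in control medium was called for 14 (11 with the second batch included). The same held for 18 of 33 genes of cholesterol and fatty acid synthesis (1 with the second batch included). Over all genes the share was 6.01%, and 232 of 13723 were lower with the second batch included. For MHC class II, 8 of 11 genes rose in MPNST-CM as well. The medium differences of Fn1 (-0.69), Bex1 (-2.44) and Mrc1 (0.38) were lost with the second batch included. The MPNST-CM call of Mrc1 (0.092) was lost with the second batch included. The MPNST-CM call of Fn1 (3.98) was lost with batch as a covariate.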

How the data were processed

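RNA was profiled by 3′ mRNA sequencing (QuantSeq FWD). Per the labels, the authors deposited raw counts per gene after Trimmomatic, FastQC, HISAT2, SAMtools and featureCounts, on mm39 (the methods text names mm10), and the strand setting is not given in the sources used here. Of 32 columns 27 matched a sample of the series and 5 were not used. The deposited counts were tested in R 4.3.3 with edgeR 4.0.16 (quasi-likelihood, robust, TMM, filterByExpr with a minimum count of 10) over the 24 batch 1 libraries as 8 groups, with Benjamini-Hochberg adjustment at 0.05, after tests on simulated data. CPM are counts scaled to the TMM-adjusted library total, and reads at the 3′ end do not allow levels to be compared between genes. Intervals and floors cover counting error only, with a floor of 3 counts per library.

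Genes were named from gene lists and by rule, namely the 15 largest changes in each direction among called genes that did not overlap between libraries and whose higher group averaged 10 CPM or more (135 genes with provisional or pseudogene names were counted and not named), the 10 most abundant called genes, and for each interaction the 5 largest in each direction, without the overlap condition. Some genes are not reported here. Nos2, Cxcl9 and other genes outside the rule are list members. The libraries and lists were chosen with earlier results of these data known. Same-numbered libraries did not deviate together (correlations 0.0085, 0.0398 and -0.0436), so no pairing was used. Alternatives were DESeq2 1.42.0, another scaling, no filter, other sets of libraries, a replicate block and a test against a log2 change of 1.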

Additional observations from a re-analysis of the deposited data

Results flagged for a closer look

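Each result here differed between genotypes or media by an edgeR interaction test. The change from Mφ to M2 in control medium differed between TRAP1 KO and WT for 964 genes, and the M2 minus Mφ difference in TRAP1 KO differed between media for 1564 genes. As TRAP1 KO minus WT on the log2 scale, the higher values were Cx3cr1 3.12, Ifitm1 2.49, Mtus1 2.28, Pbk 2.05, Alox5 2.02 and Fn1 1.75. The lower ones were Nos2 -5.67 (a fitted value on few counts), Arg1 -5.57, Mgl2 -4.76, Socs1 -4.66, Edn1 -4.24, Rnase2a -3.40, Ccl5 -3.40, Cish -3.21, Clec10a -2.78, C3 -2.75, Socs2 -2.74 and Acod1 -2.57. As MPNST-CM minus control medium, the higher differences were Tlr5 5.24 (a fitted value on few counts in control medium), Ifit1bl1 5.16, Cxcl10 5.07, Ifit2 4.93, Iigp1 4.81, Rsad2 4.38, Arg1 4.07, Clec10a 3.25 and Mrc1 0.81. The lower ones were Bex1 -4.81, Fn1 -4.55, Mmp8 -4.05, Galnt9 -3.24 and Retnla -2.41. Signs changed with the second batch included for Tlr5 (-3.58), Galnt9 (0.15) and Retnla (0.48), none of them called.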

How the results depend on the processing

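The counts of changed genes stayed within 1.5 times of those reported with median-of-ratios size factors, without the filter, with the compared groups fitted alone and with DESeq2. With all 27 libraries they were 2216 for M2 against Mφ in TRAP1 KO in control medium, 170 for the genotype interaction, 407 for the medium interaction and 475 for TRAP1 KO in MPNST-CM, and with batch as a covariate 2045, 122, 485 and 535. Tested against a log2 change of at least 1 they were 577, 45, 165 and 134, and 890 in WT, and the share of higher calls among them was 26.7% against 54.6% for the genotype interaction, 77.6% against 47.7% for the medium interaction and 76.9% against 59.99% for MPNST-CM. The cause of the loss with batch 2 was not tested, and the threshold test calls fewer genes by construction. Leaving out single replicates gave 3347 to 3439 genes in TRAP1 KO, 743 to 914 and 1319 to 1514 for the genotype and medium interactions, 4372 to 4625 in WT and 1075 to 1259 in MPNST-CM. The replicate block gave 4305, 998, 1841, 4717 and 1807, and the numbers did not pair the libraries. Of the genes named with values, signs changed with all 27 libraries for Cd86 (1.17), Clec4e (1.23), Il4ra (0.48), Oasl1 (0.055), Pbk (-0.36), Pparg (-0.37), Socs3 (1.10), Srebf1 (-0.043) and, for the medium interaction, Galnt9 (0.15), Retnla (0.48) and Tlr5 (-3.58), and with batch as a covariate for Cd86 (0.0063), Il4ra (0.24), Pbk (-0.38), Pparg (-0.40), Socs3 (0.12), Srebf1 (-0.020) and Tlr5 (-2.23). None of these values was called. Of the named calls 52 of 155 in TRAP1 KO, 6 of 18 for the genotype interaction, 8 of 14 for the medium interaction, 3 of 8 in MPNST-CM and 1 of 8 in WT were lost with all 27 libraries. Il1b, not called in TRAP1 KO otherwise, rose with all 27 libraries (3.24). Genes with no call changed sign without single libraries, over ranges of -0.33 to 0.089 for Mki67, -0.24 to 0.42 for Pparg, -0.90 to 0.23 for Sdhd, -0.042 to 0.47 for Srebf1 and, in MPNST-CM, -0.064 to 0.25 for Cxcl10, and without the 2 libraries farthest from their groups Mki67 (0.14), Sdhd (0.11) and Top2a (0.011). Genes under about 3 counts per library could not be compared at this depth.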
